A study of Homo sapiens with 10 samples.

Results

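The aminoacyl-tRNA synthetases, the enzymes that load each tRNA with its amino acid, were followed as 35 genes of the 63299 genes in the deposited count tables. The genes were chosen by name, and their Ensembl identifiers, as the tables give them, were matched to current gene symbols. Positions are those of the GRCh38 annotation. Of the 35 genes, 19 code for enzymes of the cytosol and 16 for enzymes of the mitochondrion, whose names end in 2. Polyadenylated RNA was sequenced from U2OS, a line grown from a human bone tumour, 48 h after transfection with an siRNA pool, either a control (siCtrl, 5 libraries) or one directed against DDX41 (siDDX41, 5 libraries). The comparison asks how transcript levels differ once DDX41, a DEAD-box RNA helicase, is depleted. Between 23393764 and 24598860 reads were counted in each siCtrl library and between 21807041 and 24896398 in each siDDX41 library. Nothing in the labels says that the 5 libraries of a group came from separate cultures, so that p-values measure the spread between these libraries, which may be technical.

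Each synthetase recognises one amino acid and its tRNAs, and the charged tRNA then delivers the amino acid to the ribosome. Human cells keep a cytosolic set and a mitochondrial set of these enzymes, and both sets are encoded in the nucleus and read as ordinary mRNAs. Most amino acids have one gene for each compartment, while GARS1 and KARS1 serve both, EPRS1 joins glutamyl and prolyl activity in a single chain, and FARSA and FARSB form one cytosolic phenylalanyl enzyme. Several cytosolic enzymes sit together in the multi-synthetase complex, and many cytosolic genes are known targets of ATF4, the transcription factor of the amino acid response. The mitochondrial enzymes serve the few proteins made from mitochondrial DNA.

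DDX41 (ENSG00000183258.11) itself was examined first. Its level was 49.1, 49.4, 47.3, 47.2 and 50.5 CPM (counts per 1000000, with totals scaled by TMM) in the siCtrl libraries and 11.5, 13.7, 12.4, 11.2 and 12.3 CPM in the siDDX41 libraries. The means were 48.7 ± 1.43 and 12.2 ± 1.00 CPM (SD, n = 5 each), and the groups did not overlap (log2 fold change -1.99, SE 0.05, edgeR quasi-likelihood adjusted p = 4.47e-24; two-sided exact permutation test of log2 CPM, p = 0.00794, the smallest that 5 against 5 libraries allow). All libraries thus carried the DDX41 level that their labels state. Of the mesenchymal markers, VIM stood at 2465 ± 51.0 and 2321 ± 37.8 CPM, COL1A1 at 1875 ± 100.3 and 1766 ± 94.6 CPM and SPARC at 2807 ± 32.8 and 3181 ± 96.5 CPM (SD, n = 5), while COL1A2, the partner chain of COL1A1, had at most 18 counts in a library. In the bulk RNA of a culture, fewer cells of a kind and less RNA per cell cannot be told apart.

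Of the 35 genes, 32 had enough counts to be tested and 3 were listed at 0 in all 10 libraries. These were VARS1 (ENSG00000204394.12, chr6:31777518-31795752) and VARS2 (ENSG00000137411.16, chr6:30914205-30926459), the cytosolic and mitochondrial valyl enzymes, and SARS2 (ENSG00000104835.14, chr19:38915266-38930763), the mitochondrial seryl enzyme. A count of 0 would allow at most 0.121 to 0.138 CPM in a library (3 counts, counting error only). VARS1 and VARS2 lie on chromosome 6, where 142 of 178 protein-coding genes in the region of the HLA genes were at 0 in all libraries (79.8%, against 14.0% of all protein-coding genes). Around SARS2 on chromosome 19, 13 of 22 neighbouring protein-coding genes within 300 kb were at 0 as well. Zeros in these rows therefore came in blocks of neighbouring genes, and they are not read as absence of the mRNA. CARS1 (ENSG00000110619.16, chr11:3000922-3057613), the cytosolic cysteinyl enzyme, had only 27 to 62 counts per library, far fewer than any other tested synthetase, and whether its row holds all reads of the gene was not tested. No processed copy named after a synthetase took more than 2 counts over the 10 libraries.

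The calls differed between the cytosolic and mitochondrial sets. Of the 18 tested cytosolic genes, 15 rose and 1 fell after DDX41 knockdown, and 2 did not pass the test (edgeR, adjusted p under 0.01 over all 16143 tested genes). Of the 14 tested mitochondrial genes, 6 rose, 6 fell and 2 did not pass. Among all tested genes, 30.3% were called up and 32.1% down, so the mitochondrial shares (42.9% in each direction) lay closer to this background than the cytosolic share that rose (83.3%), a difference that was not tested. The median log2 fold change was 0.37 over the cytosolic genes and -0.04 over the mitochondrial genes, beside -0.0014 over all tested genes. Without the 8 tested genes that share at least 4% of their exon bases with other counted genes, the median of the mitochondrial set was 0.12 with 6 up and 3 down, and that of the cytosolic set was 0.38 with 11 up and 1 down. This alternative was chosen after the data were seen.

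In 15 of the 18 tested cytosolic genes every siDDX41 library lay above every siCtrl library, which held for 26.7% of all tested genes. In sum, reads of the cytosolic synthetases made up 3599.8 ± 47.5 CPM in siCtrl cells and 4639 ± 94.4 CPM in siDDX41 cells (SD, n = 5), which is 28.9% more. For the mitochondrial synthetases the sums were 606 ± 3.36 and 664 ± 10.2 CPM, 9.60% more. Without IARS2 the mitochondrial sums were 386 ± 4.66 and 386 ± 7.77 CPM, in which the rises of 5 other genes stood against the genes that fell. These sums are descriptions and were not tested.

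**Figure D1:**
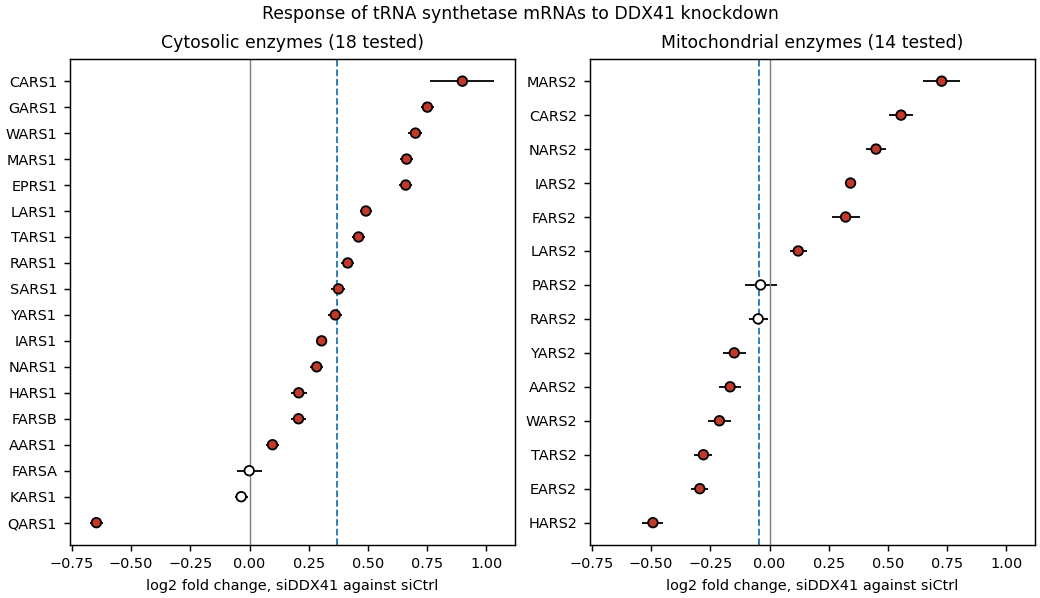
Log2 fold change of each tested synthetase mRNA, siDDX41 against siCtrl, with its standard error, for the cytosolic genes (left) and the mitochondrial genes (right). Filled points have an adjusted p under 0.01, dashed lines are the medians (0.37 and -0.04), and QARS1 at -0.65 is the only cytosolic gene called down, while the mitochondrial genes spread to both sides of 0.

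Because many cytosolic synthetase genes are known for an ATF4-bound element at their start, their promoters were read for it. RefSeq promoter windows (GRCh38.p14, 250 bases before to 50 after a start) were at hand for 30 of the 35 genes, and AARS2, LARS1, VARS1, VARS2 and YARS1 had no entry. The C/EBP-ATF response element was searched as TTGCATCA on both strands. It was present in windows of 6 synthetase genes, each of them cytosolic (6 of 16 cytosolic and 0 of 14 mitochondrial genes with a window), and in 0.866% of all 35116 windows or 1.08% of all 27305 genes with a window. The variant TTTCATCA stood before the start of GARS1 and in 1.11% of all windows. With any base at position 3 (TTNCATCA, 3.62% of all windows), 7 of 16 cytosolic genes matched and 1 of 14 mitochondrial genes, YARS2. The stretches below show the element or its variant in capitals, 5′ to 3′ on the strand of the gene, each 30 bases long.
MARS1 (chr12:57488053-57488082, plus strand): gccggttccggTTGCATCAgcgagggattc
TARS1 (chr5:33440956-33440985, plus strand): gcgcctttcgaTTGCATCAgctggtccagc
IARS1 (chr9:92293692-92293721, minus strand): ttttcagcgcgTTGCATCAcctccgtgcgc
AARS1 (chr16:70289675-70289704, minus strand): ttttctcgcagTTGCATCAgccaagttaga
NARS1 (chr18:57621804-57621833, minus strand): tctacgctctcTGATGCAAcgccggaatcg
CARS1 (chr11:3057407-3057436, minus strand): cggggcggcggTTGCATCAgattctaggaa
GARS1 (chr7:30594834-30594863, plus strand): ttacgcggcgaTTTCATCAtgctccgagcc
The match began 13, 4 and 2 bases before the start in IARS1, MARS1 and CARS1 and 187 bases before it in AARS1, it lay just after the start in TARS1 and NARS1, and in NARS1 the letters read TGATGCAA, the reverse complement. A match describes letters and not binding, which these data do not measure. All 6 genes with TTGCATCA rose, at a median of 0.38 on the log2 scale, and of the 10 other cytosolic genes with a window, 7 rose and 1 fell, with a median of 0.29 (30.3% of all tested genes rose and 32.1% fell).

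GARS1 (ENSG00000106105.13, chr7:30580533-30634033), the glycyl enzyme of both compartments, rose most among the well-counted cytosolic genes. Its level was 379, 366, 369, 385 and 371 CPM in siCtrl libraries and 616, 601, 642, 652 and 636 CPM in siDDX41 libraries (log2 fold change 0.75, SE 0.03, edgeR adjusted p = 2.68e-20). Every siDDX41 library thus lay far above every siCtrl library, a 1.68-fold difference. WARS1 (ENSG00000140105.17, chr14:100333790-100376805), the tryptophanyl enzyme, stood at 76.5, 80.4, 78.3, 81.0 and 76.2 CPM in siCtrl libraries and at 128, 125, 128, 129.7 and 128 CPM after DDX41 knockdown (log2 fold change 0.70, SE 0.03, edgeR adjusted p = 1.02e-18). Its siDDX41 libraries were tightly grouped, 1.62-fold above the controls. MARS1 (ENSG00000166986.13, chr12:57475445-57517569), the methionyl enzyme of the complex that also charges the initiator tRNA, had 269.7, 258, 247, 257 and 259.9 CPM in control libraries and 405, 395, 412, 416 and 417 CPM in siDDX41 libraries (log2 fold change 0.66, SE 0.03, edgeR adjusted p = 6.15e-19). MARS1 shares 519 exon bases with ARHGAP9 and 355 with DDIT3, both on the other strand, and the part of shared reads in its value was not tested. EPRS1 (ENSG00000136628.17, chr1:219968600-220046530), the fused glutamyl and prolyl enzyme, went from 327, 309, 328, 321 and 311 CPM in the siCtrl libraries to 519, 487, 512, 509 and 496 CPM in the siDDX41 libraries (log2 fold change 0.66, SE 0.03, edgeR adjusted p = 4.95e-19). The groups were again fully apart.

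LARS1 (ENSG00000133706.17, chr5:146110566-146182696), the leucyl enzyme, known also as a leucine sensor of mTORC1, measured 183, 179, 193, 181 and 179 CPM in siCtrl and 259, 254, 258, 262 and 253 CPM in siDDX41 libraries (log2 fold change 0.49, SE 0.03, edgeR adjusted p = 6.29e-16). The library of siCtrl replicate 3 was higher than its 4 partners, yet it stayed well below the lowest siDDX41 library. For TARS1 (ENSG00000113407.13, chr5:33440696-33468091), the threonyl enzyme, siCtrl libraries held 354, 343, 348, 357 and 342 CPM and siDDX41 libraries 483, 457, 476, 500.1 and 485 CPM (log2 fold change 0.46, SE 0.03, edgeR adjusted p = 2.52e-15). CARS1 had the largest log2 fold change of the set and the widest error, with 1.72, 1.51, 1.26, 1.16 and 1.17 CPM in control and 2.53, 2.52, 2.50, 2.60 and 2.60 CPM in knockdown libraries (log2 fold change 0.90, SE 0.13, edgeR adjusted p = 8.77e-07). Its groups did not overlap, but the value rests on no more than 62 counts per library.

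Smaller rises were measured in 8 further cytosolic genes. RARS1 (ENSG00000113643.8, chr5:168486451-168519301), the arginyl enzyme, rose by 0.41 on the log2 scale, SARS1 (seryl, ENSG00000031698.12, chr1:109213918-109238182) by 0.38, YARS1 (tyrosyl, ENSG00000134684.10, chr1:32775237-32818031) by 0.36 and IARS1 (isoleucyl, ENSG00000196305.17, chr9:92210207-92293854) by 0.30. NARS1 (asparaginyl, ENSG00000134440.11, chr18:57600656-57622213) rose by 0.28, HARS1 (histidyl, ENSG00000170445.12, chr5:140673035-140691537) by 0.21, FARSB (the beta chain of the phenylalanyl enzyme, ENSG00000116120.9, chr2:222566899-222656092) by 0.21 and AARS1 (alanyl, ENSG00000090861.15, chr16:70251983-70289707) by 0.10. Their edgeR adjusted p-values ran from 3.24e-14 for RARS1 to 0.00133 for AARS1. AARS1 showed how small a called difference could be at this depth: its mean rose from 209 ± 3.80 to 224 ± 2.77 CPM (SD, n = 5), 6.96%.

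QARS1 (ENSG00000172053.16, chr3:49095932-49105130), the glutaminyl enzyme, ran against the rest of the cytosolic set. It stood at 335, 322, 326, 326 and 331 CPM in siCtrl libraries and at 199.8, 216, 208, 209 and 215 CPM in siDDX41 libraries (log2 fold change -0.65, SE 0.03, edgeR adjusted p = 8.12e-19). The fall left 0.639 of the control level, and its groups were as clearly apart as those of the genes that rose most. In GENCODE release 44, QARS1 shares no exon base with another counted gene. KARS1 (ENSG00000065427.14, chr16:75627474-75648643), the lysyl enzyme of both compartments, had means of 254 ± 5.32 and 248 ± 7.81 CPM (log2 fold change -0.04, SE 0.03, edgeR adjusted p = 0.256). FARSA (ENSG00000179115.10, chr19:12922479-12934037), the alpha chain of the phenylalanyl enzyme, had means of 34.3 ± 2.96 and 34.3 ± 2.14 CPM (log2 fold change -0.0012, SE 0.05, edgeR adjusted p = 0.986). KARS1 and FARSA did not pass the test, and their groups overlapped. The chains of the phenylalanyl enzyme, which work as one protein, so received different calls, though the difference itself was not tested.

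**Figure D2:**
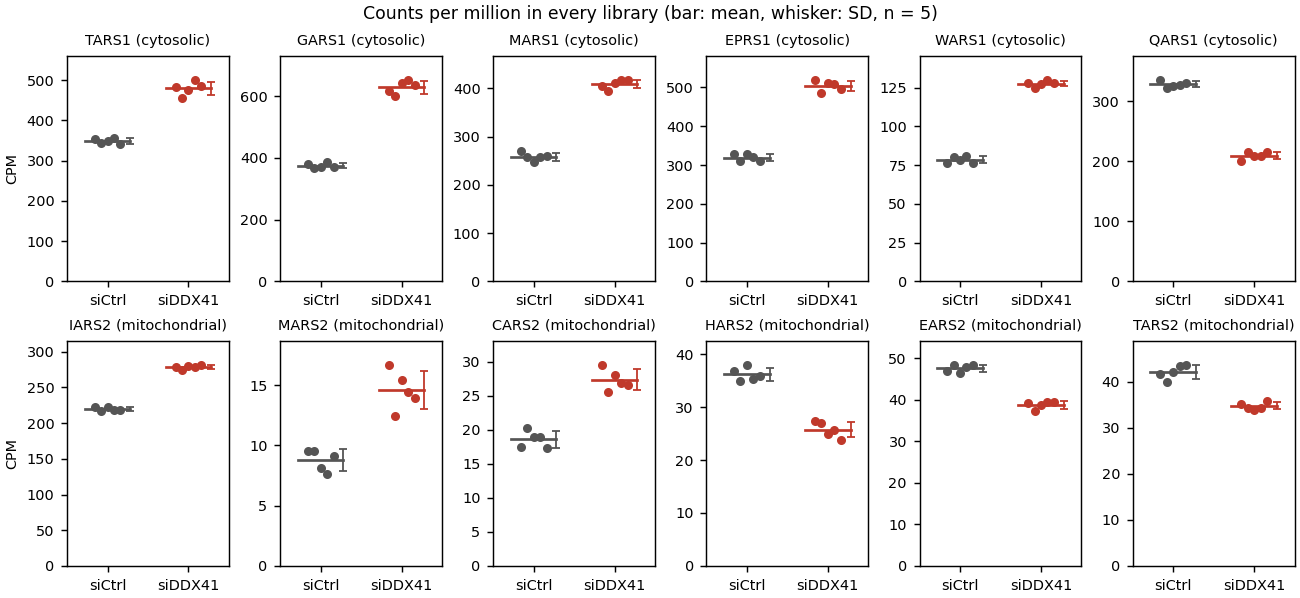
CPM of 12 synthetase genes in each of the 5 siCtrl (grey) and 5 siDDX41 (red) libraries, with mean and SD, on axes that start at 0. The upper row holds cytosolic genes and the lower row mitochondrial genes, and the groups are apart in each panel.

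Grouping by partners gave the following counts, beside the 30.3% of all tested genes that rose and the 32.1% that fell. Of 7 genes of the multi-synthetase complex (EPRS1, IARS1, KARS1, LARS1, MARS1, QARS1 and RARS1), 5 rose and 1 fell, and their median stood at 0.41. Of the 11 other tested cytosolic genes, 10 rose and FARSA was not called, with a median of 0.36. The complex thus held both a strong rise and the strongest fall. Among the scaffold proteins that hold it together, AIMP2 (log2 fold change 0.32, edgeR adjusted p = 1.42e-10) and AIMP1 (log2 fold change 0.29, edgeR adjusted p = 1.15e-09) rose, and EEF1E1 had 7.85 ± 0.546 and 8.53 ± 1.07 CPM (log2 fold change 0.12, edgeR adjusted p = 0.187).

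Another grouping used what is known of the amino acid response. All 12 tested cytosolic genes that are known targets of this response rose, at a median of 0.48 and over a range of 0.10 to 0.90. Of the 6 cytosolic genes not counted as targets, RARS1, HARS1 and FARSB rose, QARS1 fell and FARSA and KARS1 were not called, with a median of 0.10. By fold of the catalytic domain, with EPRS1, which has both folds, in neither group, 7 of 8 tested cytosolic genes of class I and 7 of 9 of class II rose, with medians of 0.45 and 0.21. Of the tested mitochondrial genes, 4 of 8 in class I rose and 3 fell, and 2 of 6 in class II rose and 3 fell, with medians of 0.04 and -0.10. Over all tested genes the shares were 30.3% up and 32.1% down, and these groups were not tested against each other.

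In the mitochondrial set, MARS2 (ENSG00000247626.4, chr2:197705369-197708395), the methionyl enzyme, rose most. Its level was 9.56, 9.55, 8.12, 7.62 and 9.16 CPM in siCtrl and 16.7, 12.4, 15.4, 14.4 and 14.0 CPM in siDDX41 libraries (log2 fold change 0.73, SE 0.08, edgeR adjusted p = 2.33e-09). CARS2 (ENSG00000134905.16, chr13:110641412-110713603), the cysteinyl enzyme, had 17.5, 20.3, 18.9, 18.9 and 17.4 CPM in siCtrl libraries and 29.5, 25.5, 28.1, 26.9 and 26.5 CPM in siDDX41 libraries (log2 fold change 0.56, SE 0.05, edgeR adjusted p = 9.87e-11). CARS2 shares 334 exon bases with ING1 on the other strand, which rose as well (log2 fold change 0.51, edgeR adjusted p = 2.18e-10), and its part in the result was not tested. NARS2 (ENSG00000137513.9, chr11:78435620-78575194), the asparaginyl enzyme, measured 44.9, 40.6, 41.2, 45.5 and 39.7 CPM in control and 61.6, 54.0, 57.6, 59.7 and 56.4 CPM in knockdown libraries (log2 fold change 0.45, SE 0.04, edgeR adjusted p = 1.30e-10). IARS2 (ENSG00000067704.9, chr1:220094132-220148041), the isoleucyl enzyme, stood at 223, 217, 222, 219 and 218 CPM and after knockdown at 278, 274, 281, 278 and 282 CPM (log2 fold change 0.34, SE 0.02, edgeR adjusted p = 3.97e-13). Relative to its mean, IARS2 had the smallest spread of these genes (coefficient of variation 1.20% in siCtrl and 1.05% in siDDX41 libraries). Its groups lay many SDs apart.

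FARS2 (ENSG00000145982.11, chr6:5261044-5829192), the phenylalanyl enzyme of mitochondria and a single chain, had 10.9, 10.0, 10.3, 11.4 and 11.0 CPM in siCtrl libraries and 12.8, 13.2, 13.1, 14.4 and 13.7 CPM in siDDX41 libraries (log2 fold change 0.32, SE 0.06, edgeR adjusted p = 2.17e-05). LARS2 (ENSG00000011376.9, chr3:45388561-45554726), the leucyl enzyme, had 51.1, 48.1, 47.1, 50.9 and 51.0 CPM in siCtrl and 55.5, 51.3, 54.6, 54.2 and 54.3 CPM in siDDX41 libraries (log2 fold change 0.12, SE 0.04, edgeR adjusted p = 0.00399). The groups of LARS2 were barely apart, and its call did not hold without siCtrl replicate 2 (0.11), siCtrl replicate 3 (0.10) or siDDX41 replicate 1 (0.11 on the log2 scale).

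HARS2 (ENSG00000112855.14, chr5:140691430-140699305), the histidyl enzyme, fell most in the mitochondrial set. In 5 of the 14 tested mitochondrial genes every siDDX41 library lay below every siCtrl library, which held for 29.3% of all tested genes. In 6 of the 14 every siDDX41 library lay above every siCtrl library, beside 26.7% of all tested genes. HARS2 had 36.8, 34.9, 37.97, 35.3 and 35.9 CPM in siCtrl libraries and 27.3, 26.9, 24.8, 25.7 and 23.8 CPM in siDDX41 libraries (log2 fold change -0.49, SE 0.04, edgeR adjusted p = 4.45e-11). Its neighbour HARS1, which codes for the cytosolic enzyme, rose over the same libraries from 66.2 ± 2.28 to 76.5 ± 2.54 CPM (SD, n = 5; log2 fold change 0.21, edgeR adjusted p = 3.08e-06). HARS1 and HARS2 lie back to back on chromosome 5 and are read in opposite directions. Only 84 bases separate their RefSeq starts, so the stretch between these starts is shown whole, on the plus strand of GRCh38.p14.
Between HARS1 and HARS2 (chr5:140691371-140691454): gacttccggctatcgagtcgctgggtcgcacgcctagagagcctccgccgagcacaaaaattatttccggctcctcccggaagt
HARS1 shares 1090 exon bases with WDR55 on the other strand, which had 48.5 ± 1.598 and 52.0 ± 1.22 CPM (log2 fold change 0.10, edgeR adjusted p = 0.0137). Longer annotated forms of HARS1 and HARS2 share 108 exon bases, and HARS2 shares 152 with ZMAT2 on its own strand, which had 65.9 ± 1.71 and 62.5 ± 2.44 CPM (log2 fold change -0.08, edgeR adjusted p = 0.0494).

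EARS2 (ENSG00000103356.15, chr16:23520754-23557731), the glutamyl enzyme that in mitochondria also loads the glutamine tRNA, had 46.9, 48.2, 46.5, 47.9 and 48.4 CPM in siCtrl and 39.2, 37.2, 38.8, 39.4 and 39.4 CPM in siDDX41 libraries (log2 fold change -0.29, SE 0.04, edgeR adjusted p = 2.00e-08). It shares 203 exon bases with GGA2 on the same strand, and GGA2 moved the other way (log2 fold change 0.21, edgeR adjusted p = 4.86e-07). It also shares 11 with UBFD1 on the other strand, which fell (log2 fold change -0.25, edgeR adjusted p = 7.62e-09), and the part of shared reads was not tested. TARS2 (ENSG00000143374.15, chr1:150487414-150507602), the threonyl enzyme, measured 41.7, 40.0, 42.2, 43.3 and 43.7 CPM in siCtrl libraries and 35.2, 34.4, 34.0, 34.4 and 35.9 CPM in siDDX41 libraries (log2 fold change -0.28, SE 0.04, edgeR adjusted p = 1.94e-07). In GENCODE release 44, TARS2 shares no exon base with another counted gene. WARS2 (ENSG00000116874.11, chr1:119031216-119140654), the tryptophanyl enzyme, went from 20.8, 23.6, 20.8, 21.6 and 21.7 CPM to 18.2, 18.1, 19.2, 18.9 and 19.3 CPM (log2 fold change -0.21, SE 0.05, edgeR adjusted p = 3.71e-04). Here the cytosolic partner WARS1 rose by 0.70, so that the tryptophanyl genes moved in opposite directions. WARS2 shares 168 exon bases with WARS2-AS1 on the other strand, which had 17.0 ± 0.758 and 15.2 ± 1.26 CPM (log2 fold change -0.16, edgeR adjusted p = 0.0134). WARS1 shares 385 with a long noncoding RNA that had 2 counts over all libraries and 287 with WDR25, and the part of shared reads was not tested.

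AARS2 (ENSG00000124608.4, chr6:44298731-44313347), the alanyl enzyme, had 30.8, 33.1, 31.0, 31.7 and 30.7 CPM in siCtrl and 27.6, 28.6, 29.1, 25.004 and 29.8 CPM in siDDX41 libraries (log2 fold change -0.17, SE 0.05, edgeR adjusted p = 0.00224). Without siDDX41 replicate 4, the lowest of its group, the log2 fold change was -0.13 and no longer passed. YARS2 (ENSG00000139131.12, chr12:32727490-32755897), the tyrosyl enzyme, had 31.0, 36.9, 32.5, 35.2 and 32.8 CPM in control and 29.0, 29.0, 32.6, 30.2 and 31.0 CPM in knockdown libraries (log2 fold change -0.15, SE 0.05, edgeR adjusted p = 0.00681). The groups of YARS2 overlapped, and its call was the weakest of the set. It did not hold with DESeq2 (-0.14), nor without siCtrl replicate 2 (-0.11) or 4 (-0.13), nor without siDDX41 replicate 1 (-0.13), 2 (-0.13), 4 (-0.15) or 5 (-0.15). PARS2 (ENSG00000162396.5, chr1:54756898-54764523), the prolyl enzyme, had means of 10.4 ± 0.589 and 10.2 ± 0.828 CPM (log2 fold change -0.04, edgeR adjusted p = 0.629), and RARS2 (ENSG00000146282.17, chr6:87513459-87590028), the arginyl enzyme, had 32.8 ± 0.862 and 31.7 ± 0.837 CPM (log2 fold change -0.05, edgeR adjusted p = 0.283). Neither passed the test. Replicate spread was somewhat wider in the mitochondrial set: the coefficient of variation of its genes in siCtrl libraries had a median of 4.43%, against 2.49% for the cytosolic genes.

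The contrast of the compartments was then tested amino acid by amino acid. For 15 pairs of a cytosolic and a mitochondrial gene, the log2 ratio of their counts was taken within each library (0.5 added to each count), so that no scaling of libraries enters, and the groups were compared with two-sided exact permutation tests. EPRS1 and FARS2 each enter 2 pairs, and for seryl and valyl tRNA no ratio could be formed. In 9 of the 15 pairs the ratio was higher in every siDDX41 library than in any siCtrl library (exact permutation p = 0.00794 each, the smallest possible), and in 1 pair it was lower in every one. How often the ratios of other gene pairs separate in this way was not computed, though 26.7% and 29.3% of single genes do so upward and downward. The median change over the pairs was 0.37, toward the cytosolic gene.

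The ratio of EPRS1 to EARS2 moved most, from 2.75 ± 0.06 to 3.70 ± 0.03 (log2, SD, n = 5), so that the glutamyl ratio was 1.94-fold higher. Tryptophanyl genes followed, from 1.85 ± 0.06 to 2.77 ± 0.04. Both partners moved in these pairs, the cytosolic gene up and the mitochondrial gene down. For threonyl (TARS1 to TARS2) the change was 0.74, for histidyl (HARS1 to HARS2) 0.70 and for prolyl (EPRS1 to PARS2) 0.70. Tyrosyl (YARS1 to YARS2) shifted by 0.51, arginyl (RARS1 to RARS2) by 0.46, leucyl (LARS1 to LARS2) by 0.37 and alanyl (AARS1 to AARS2) by 0.27 on the log2 scale. In the prolyl and arginyl pairs only the cytosolic gene was called, and in the leucyl pair both genes rose.

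The remaining pairs held, lowered or less surely raised the ratio. MARS1 and MARS2 rose to a similar extent, and their log2 ratio was 4.88 ± 0.13 and 4.81 ± 0.15 (SD, n = 5; exact permutation p = 0.484). For IARS1 and IARS2 it was 0.69 ± 0.03 and 0.66 ± 0.02 (exact permutation p = 0.0635), and without siCtrl replicate 3 this change was -0.05 with an exact permutation p of 0.0159 (0.0159 to 0.127 over the alternatives). In these methionyl and isoleucyl pairs both genes rose, as they did in the leucyl, asparaginyl and cysteinyl pairs. NARS1 lost against NARS2 by -0.17 (exact permutation p = 0.0159) and FARSA against FARS2 by -0.32 (exact permutation p = 0.00794), while the value for FARSB against FARS2 was -0.11 (exact permutation p = 0.0794). The ratio of the sparsely counted CARS1 to CARS2 changed by 0.36 (exact permutation p = 0.0397). That p passed 0.05 in 5 against 5 libraries, but not with 5 counts added in place of 0.5 (0.28) and not after leaving out any library other than siCtrl replicate 1 (changes of 0.29 to 0.39).

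**Figure D3:**
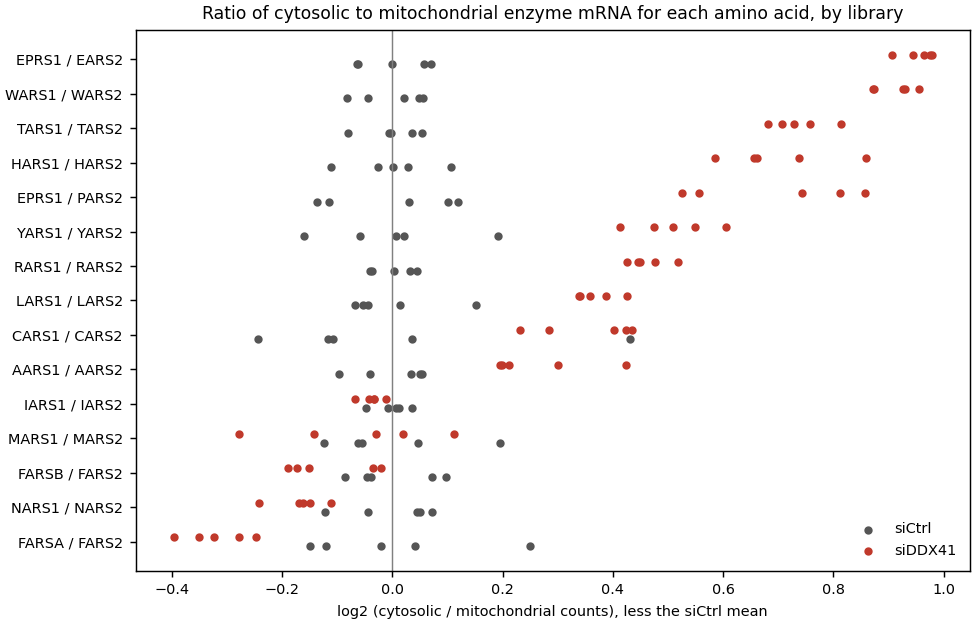
Log2 ratio of cytosolic to mitochondrial counts for 15 pairs of genes, with the siCtrl mean of each pair set to 0, in the 5 siCtrl (grey) and 5 siDDX41 (red) libraries. From the leucyl pair upward, in the 8 pairs with the largest changes, all siDDX41 libraries lie to the right of all siCtrl libraries, and the change reaches 0.95 for EPRS1 to EARS2.

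Levels were compared between genes per length, as CPM per kb of annotated exon. In siCtrl cells the median was 21.0 CPM per kb over 18 cytosolic genes and 5.05 over 14 mitochondrial genes. TARS1 was highest of the cytosolic set, at 82.0 ± 1.54 CPM per kb (SD, n = 5), followed by QARS1 at 69.7 ± 1.09, KARS1 at 62.8 ± 1.31 and EPRS1 at 60.0 ± 1.63. KARS1 and EPRS1 differed by less than the sum of their SDs. CARS1 was lowest at 0.136 ± 0.0243 CPM per kb, and the next lowest cytosolic gene was HARS1 at 4.68 ± 0.161. IARS2 led the mitochondrial set at 53.2 ± 0.638, a level within the spread of SARS1 (54.4 ± 1.36) and above that of IARS1 (15.9 ± 0.298). The mitochondrial gene was thus the higher one per exon length for isoleucyl tRNA, as it was for histidyl tRNA (HARS2 9.72 ± 0.334) and, with the doubt about the CARS1 row noted above, cysteinyl tRNA. CARS2 was lowest among mitochondrial genes at 1.78 ± 0.115, which differed from RARS2 (1.86 ± 0.0489) by less than the sum of their SDs. Since these lengths join the exons of all forms annotated in GENCODE release 44, long rare exons lower the value of a gene. The joined exons span 22418 bases for IARS1 and 4135 for IARS2, and 14155 for HARS1 and 3719 for HARS2. In CPM without length, the cytosolic gene of these pairs was the higher one in siCtrl cells. IARS1 had 355 and IARS2 220 CPM, and HARS1 had 66.2 and HARS2 36.1 CPM. The order per exon length in these pairs thus rests on the annotated lengths.

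DDX41 knockdown reordered the upper end. EPRS1 passed QARS1 and KARS1 to reach 94.8 ± 2.43 CPM per kb (SD, n = 5), behind TARS1 at 113 ± 3.72, while QARS1 dropped from place 2 to place 9 at 44.5 ± 1.34. MARS1 went from place 9 to place 6, at 58.2 ± 1.29 CPM per kb.

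**Figure D4:**
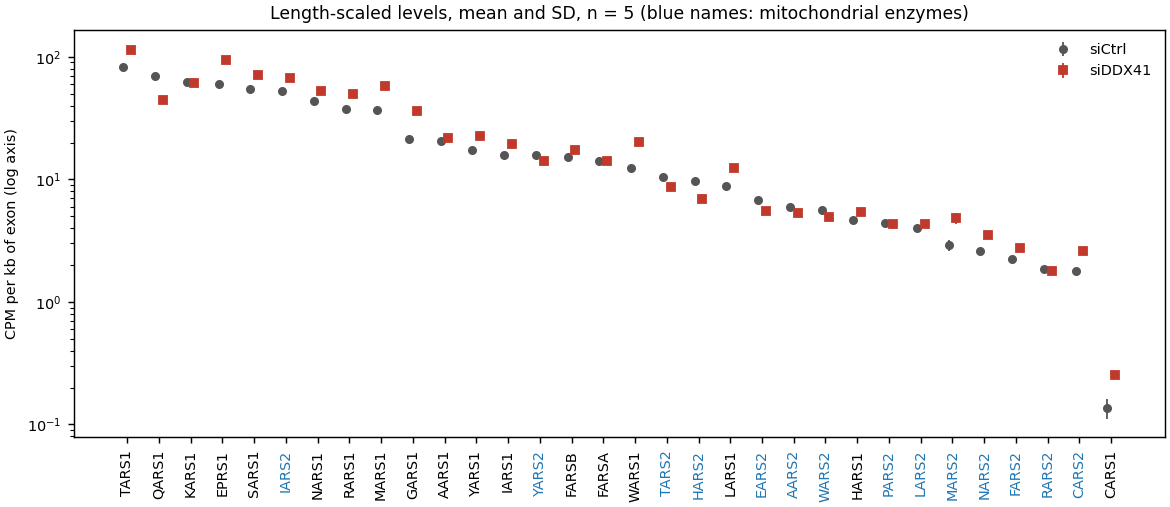
Length-scaled level (CPM per kb of exon, log axis) of the 32 tested synthetase genes, ordered by their siCtrl mean, in siCtrl (grey circles) and siDDX41 (red squares) libraries with SD, n = 5. Names of mitochondrial genes are in blue, TARS1 leads in both groups, IARS2 is the highest mitochondrial gene, and CARS1 stands alone at the low end.

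Genes that work beside the synthetases were taken from lists made by function. These lists are selections, chosen with earlier results of these data known. All 10 listed amino acid transporters rose, with a median log2 fold change of 0.38. Among them were SLC6A9, a glycine carrier (log2 fold change 1.05, edgeR adjusted p = 1.10e-18), SLC1A5, a glutamine carrier (log2 fold change 0.66, edgeR adjusted p = 4.87e-18), and SLC38A1 (log2 fold change 0.70, edgeR adjusted p = 1.10e-17). Of 16 genes of amino acid synthesis, 9 rose and 4 fell (median 0.22). ASNS, which makes asparagine, went from 118 ± 3.25 to 259.7 ± 9.06 CPM (SD, n = 5; log2 fold change 1.14, edgeR adjusted p = 1.25e-23), and PSAT1 of serine synthesis (log2 fold change 1.10, edgeR adjusted p = 6.10e-20) and GPT2 (log2 fold change 0.48, edgeR adjusted p = 1.25e-13) rose with it. These lists supply the amino acids that the synthetases use, and the shares that rose exceeded the 30.3% of all tested genes.

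Of 14 regulators of the amino acid response, 6 rose and 5 fell (42.9% and 35.7%, beside 30.3% and 32.1% of all tested genes), with a median of 0.03. ATF4, the central transcription factor of the response, rose from 303 ± 6.41 to 399 ± 10.3 CPM (SD, n = 5; log2 fold change 0.40, edgeR adjusted p = 4.62e-14), and the phosphatase subunit PPP1R15A rose too (log2 fold change 0.69, edgeR adjusted p = 1.39e-15). ATF5 fell from 29.9 ± 2.51 to 12.5 ± 0.905 CPM (log2 fold change -1.25, edgeR adjusted p = 4.40e-17). DDIT3, a known late target of the response, had means of 11.1 ± 0.831 and 11.6 ± 0.842 CPM and was not called (log2 fold change 0.06, edgeR adjusted p = 0.465). It shares 355 exon bases with MARS1, and the part of shared reads was not tested. Of the same list, TRIB3 (log2 fold change 0.71, edgeR adjusted p = 1.57e-10) and CEBPG (0.43, edgeR adjusted p = 1.02e-11) rose. SESN2 (log2 fold change -0.19, edgeR adjusted p = 4.08e-05) and CEBPB (-0.18, edgeR adjusted p = 0.00813) fell.

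Around the tRNA itself, each list held more genes that rose than fell, where 30.3% of all tested genes rose and 32.1% fell, and no list was tested as a set. Of 44 tested tRNA modification enzymes, 23 rose and 6 fell (median 0.13), led by WDR4, the partner of the methyltransferase METTL1 (log2 fold change 0.75, edgeR adjusted p = 1.03e-13), YRDC (log2 fold change 0.74, edgeR adjusted p = 4.09e-13) and DUS1L (log2 fold change 0.49, edgeR adjusted p = 1.94e-12). Of 19 tested genes for tRNA ends, splicing and export, 10 rose and 3 fell (median 0.12). XPOT, the exporter of tRNA from the nucleus, rose most clearly (log2 fold change 0.61, edgeR adjusted p = 2.63e-17), beside SSB (log2 fold change 0.20, edgeR adjusted p = 1.99e-07) and TRMT10C (log2 fold change 0.26, edgeR adjusted p = 3.75e-07). Among 20 tested genes of RNA polymerase III transcription, which makes tRNA, 9 rose and 3 fell (median 0.12). The strongest calls there were falls of GTF3C2, a subunit of the factor that binds tRNA genes (log2 fold change -1.09, edgeR adjusted p = 4.24e-22), and of MAF1, the repressor of the polymerase (log2 fold change -0.65, edgeR adjusted p = 1.75e-17), and a rise of POLR3GL (log2 fold change 0.78, edgeR adjusted p = 2.40e-12). Synthetase-like and editing factors gave 3 that rose (TARS3, log2 fold change 0.62, edgeR adjusted p = 1.64e-12; DTD1, log2 fold change 0.39, edgeR adjusted p = 3.01e-10; DTD2, log2 fold change 0.37, edgeR adjusted p = 3.36e-06) and 1 that fell among 6.

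Factors of elongation and of mitochondrial translation were listed apart. Of 5 tested genes of cytosolic elongation factors and their kinase EEF2K, 4 fell and EEF1D was not called, where 30.3% of all tested genes rose and 32.1% fell. Those that fell were EEF1A1 (log2 fold change -0.32, edgeR adjusted p = 1.12e-12), EEF1A2 (log2 fold change -0.89, edgeR adjusted p = 1.84e-12), EEF2K, which restrains EEF2 (log2 fold change -0.60, edgeR adjusted p = 3.77e-12), and EEF2 (log2 fold change -0.77, edgeR adjusted p = 8.00e-12). EEF1G was listed at 0, EEF1B2 had at most 1 count and EEF1D at most 22 in a library, rows too low for genes that every cell uses. Of 10 mitochondrial translation factors, 6 rose and 2 fell (median 0.15), with GFM2 up (log2 fold change 0.42, edgeR adjusted p = 3.45e-13) and the release factor genes MTRFR (log2 fold change -0.49, edgeR adjusted p = 5.82e-11) and MTRF1 (log2 fold change -0.63, edgeR adjusted p = 1.08e-08) down. Mitochondria make glutaminyl tRNA by amidation after EARS2 has loaded glutamate. Among 4 genes of this amidation and of formylation, QRSL1 rose (log2 fold change 0.43, edgeR adjusted p = 1.06e-09), GATC fell (log2 fold change -0.32, edgeR adjusted p = 7.89e-08) and GATB was called up with the weakest margin (log2 fold change 0.13, edgeR adjusted p = 0.00992), a call lost in 14 of 16 other fits, among them those that leave out any library other than siDDX41 replicate 3 (log2 fold changes of 0.11 to 0.14).

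**Figure D5:**
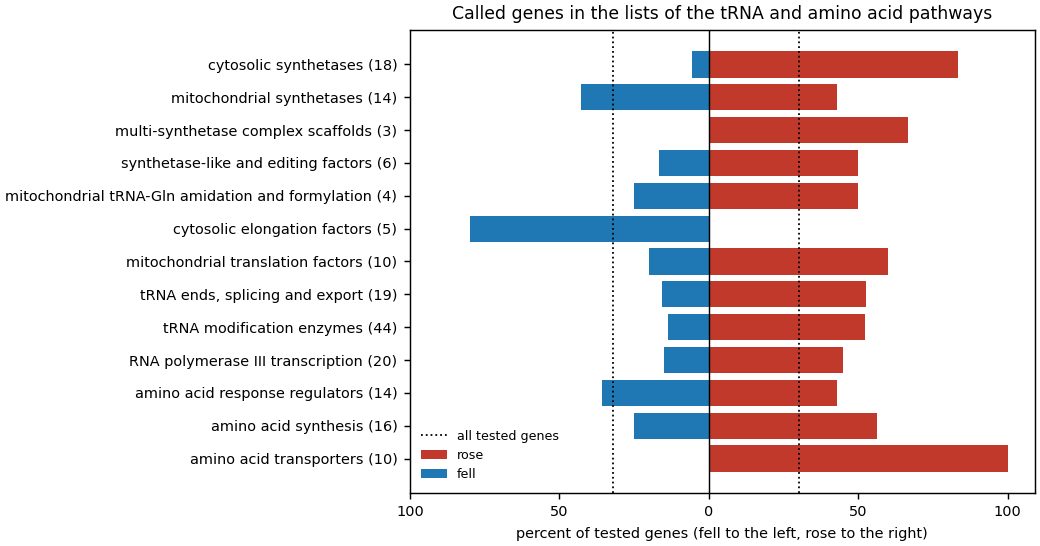
Percent of tested genes that rose (right, red) or fell (left, blue) at an adjusted p under 0.01 in each list, with the number of tested genes in brackets. Dotted lines mark the shares over all tested genes, 30.3% up and 32.1% down. The listed amino acid transporters (10 of 10) and the cytosolic synthetases (15 of 18) have the highest shares that rose. The lists were chosen with earlier results of these data known.

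Markers of cell type were read in the same libraries, where 30.3% of all tested genes rose and 32.1% fell. Of 6 tested mesenchymal and osteoblast markers, 1 rose (SPARC, log2 fold change 0.18, edgeR adjusted p = 1.42e-07) and 4 fell, led by RUNX2 (log2 fold change -0.40, edgeR adjusted p = 2.24e-09) and ALPL (log2 fold change -0.70, edgeR adjusted p = 5.51e-06). BGLAP and IBSP, which mark mature osteoblasts, had at most 4 counts in a library. The summed level of the 9 genes was 7475, 7529, 7287, 7268 and 7491 CPM in siCtrl libraries and 7290.5, 7616, 7459, 7446 and 7704 CPM in siDDX41 libraries, with SPARC the most abundant per exon length. The sums overlapped between the groups. Of 6 tested epithelial markers, KRT18 (log2 fold change 0.98, edgeR adjusted p = 3.78e-19) and KRT8 (log2 fold change 0.46, edgeR adjusted p = 4.47e-08) rose and CLDN4 fell (log2 fold change -1.13, edgeR adjusted p = 1.39e-16), and the sum over 9 genes, mostly KRT8 and KRT18, went from 1082, 1125, 999, 1048 and 1072 CPM to 1661, 1716, 1579, 1773 and 1771 CPM. The defining genes EPCAM and CDH1 stayed low, at 8.31 and 0.928 CPM in siDDX41 cells, and KRT20 was at 0. Of 7 blood cell markers, CD34 fell (log2 fold change -2.71, edgeR adjusted p = 5.27e-20) and took most of a summed level of 30.5, 28.4, 31.5, 32.4 and 31.0 CPM in siCtrl and 4.92, 5.52, 3.91, 5.84 and 6.002 CPM in siDDX41 libraries. PTPRC had 0.333 and 0.539 CPM (log2 fold change 0.69, edgeR adjusted p = 0.0228), and CD3E and HBB were at 0. The part of these shifts in the synthetase results was not tested.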

How the data were processed

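The authors prepared stranded libraries of polyadenylated RNA, sequenced single reads of 84 bases, mapped them with STAR 2.7 to hg38 with Gencode release 25 and deposited whole read counts per gene from featureCounts 1.6. How strand was set in counting, and how multi-mapping reads were treated, are not given in the sources used here, so that genes with overlapping exons are uncertain. Identifiers were matched without their version to GENCODE release 44 (GRCh38, the same build). Exon lengths and shared exon bases were also taken from release 44, and those of release 25, on which reads were counted, were not examined. The 6351 rows without a match held 0.106% of the counts.

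Counts were analysed with edgeR 4.0.16 in R 4.3.3 (filterByExpr by group, TMM, robust glmQLFit, glmQLFTest) over all 16143 genes that passed the filter, with Benjamini-Hochberg adjustment and a threshold of 0.01. The test was checked on simulated data. In all 20 pairs, libraries of one group lay further apart than counting noise alone (chi-square per degree of freedom 1.76 to 5.67). The biological coefficient of variation was 3.65%. Ratios of pairs were tested with scipy 1.17.1 in Python 3.11.15. Alternatives were DESeq2 1.42.0, other scalings, filters and thresholds, a replicate block and leaving out each library.

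The members and lists were chosen with earlier results of these data known. Values in every library are given for up to 6 called genes with the largest change per direction and compartment and for the highest and lowest length-scaled genes, and lists give up to 3 genes with the smallest adjusted p. EEF2, VIM, COL1A1 and other genes named beyond this rule were chosen after their values were seen. Promoter sequences are from RefSeq.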

Additional observations from a re-analysis of the deposited data

Results flagged for a closer look

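In groups of 5 libraries, a single library was set apart where its distance to the next library, divided by the range of its group, exceeded Dixon's critical value. Chance alone sets apart about 1 in 20 groups, and here it was 10 of the 154 groups examined. All libraries were kept. The LARS1 level of siCtrl replicate 3 was 193 CPM, with its 4 partners at 179 to 183 CPM. In siDDX41 replicate 2, EARS2 stood at 37.2 CPM, the lowest of its group, beside 38.8 to 39.4 CPM in the 4 others. For ATF5, siDDX41 replicate 1 gave 10.9 CPM, and the other 4 libraries gave 12.6 to 13.1 CPM. The DTD1 level of siDDX41 replicate 2 was 50.7 CPM, with its 4 partners at 55.0 to 55.9 CPM. In siCtrl replicate 4, DTD2 stood at 11.5 CPM, the lowest of its group, beside 13.6 to 14.2 CPM in the 4 others. For MAF1, siCtrl replicate 3 gave 192 CPM, and the other 4 libraries gave 198 to 200.3 CPM. The RUNX2 level of siDDX41 replicate 2 was 26.1 CPM, with its 4 partners at 24.1 to 24.4 CPM. In siCtrl replicate 2, SPARC stood at 2749.6 CPM, the lowest of its group, beside 2812 to 2833 CPM in the 4 others. For WDR4, siDDX41 replicate 4 gave 23.0 CPM, and the other 4 libraries gave 26.0 to 26.9 CPM. The CEBPG level of siCtrl replicate 5 was 48.7 CPM, with its 4 partners at 51.8 to 52.4 CPM. Each gap made up 0.724 to 0.875 of the range of its group, and apart from LARS1 and EARS2 these genes are not synthetases. Why these libraries stood apart was not tested.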

How the results depend on the processing

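Of the 32 tested synthetase genes, 29 kept their call in all 16 other fits (2 scalings, 2 filters, DESeq2, the replicate block and 10 fits that leave out a library), and no call reversed. The exceptions were YARS2, LARS2 and AARS2, whose values stand in the report. No fit moved the log2 fold change of a synthetase by more than 0.10. Counts of cytosolic genes were 15 up and 1 down with each library left out, those of mitochondrial genes 5 to 6 up and 4 to 6 down, and pairs passing 0.05 numbered 11 to 12 of 15. With an absolute log2 fold change over 0.25 required, 3 mitochondrial genes were called down in place of 6, 5 up in place of 6, and 12 cytosolic genes up in place of 15. At this cut 3406 of all 16143 tested genes were called up and 4101 down, in place of 4890 and 5178. Without genes sharing at least 4% of their exon bases, an alternative chosen after seeing the data, 3 mitochondrial genes were also called down, and the median of the mitochondrial set was 0.12 in place of -0.04, because those genes leave the set. Leaving out CARS1, also chosen after seeing the data, gave 14 cytosolic genes up and a median of 0.36.

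Both groups share the replicate numbers 1 to 5. Deviations of same-numbered libraries from their group means correlated by -0.0524 to 0.0446, and 1 of 5 libraries had its own number as best partner, so the numbers were not read as pairs. A block for these numbers gave calls as follows: 4790 genes were called up and 5097 down, in place of 4890 and 5178, DDX41 changed by -1.99, and the medians were 0.37 and -0.04. The block left the synthetase calls at 15 and 6 up and 1 and 6 down. For the ratios the block was tried as a sign-flip test only, in which 5 pairs give no p below 0.0625, so no value is given. Depth limits CARS1, FARS2, MARS2 and PARS2 most, which had the fewest counts.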
